A study of Homo sapiens with 8 samples.

Results

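The comparison set the 2 arrays of cells carrying a short hairpin RNA against RING1B beside the 2 arrays of cells carrying a hairpin against EZH2, chosen by these labels, out of 8 arrays in the series. All 14884 genes with a named probe set entered, each through the probe set with the highest mean over the 8 arrays. All labels name SCC13 as the cell line, which grows as keratinocytes of a squamous skin cancer and is long established, and values are log2 expression after RMA (background correction, quantile normalization and probe summary). The other arrays carried a control hairpin against GFP (2 arrays) or a hairpin against BMI1 (2 arrays). The labels give no other treatment, time, hairpin sequence or clone. Nothing in them tells if both arrays per hairpin are independent cultures, and each p-value then measures array-to-array spread, which may be technical.

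RING1B, encoded by RNF2, is the E3 ligase of Polycomb repressive complex 1 (PRC1), which places ubiquitin on histone H2A. EZH2 is the methyltransferase of Polycomb repressive complex 2 (PRC2), which methylates lysine on histone H3. Both complexes keep developmental genes silent, many of the same genes carry both marks, and the mark of each complex can help to recruit the other. The series title asks about the proinflammatory function of the tumour cells under RING1B and EZH2, and setting both hairpins against each other asks which genes differ between loss of a PRC1 and of a PRC2 enzyme.

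EZH2 mRNA was at 9.62 and 9.86 on the shRING1B arrays, 8.95 and 9.03 on the shEZH2 arrays and 9.83 and 9.97 on the shGFP arrays. Both shEZH2 values lay below all the others. The level was 1.68-fold higher with shRING1B than with shEZH2 (log2 0.75 ± 0.12 SE, n = 2 per group, limma adjusted p = 0.0401). RNF2 was not analysed here, since no named probe set stands for it, and the RING1B knockdown is unchecked. In their titles both shEZH2 arrays carry the prefix SCCL3 while the other 6 begin with SCC13, the name that the cell line field gives for every array. Hairpin and any difference of line or batch marked by the prefix cannot be told apart in any value below. Gene values correlated at 0.995 between the shRING1B arrays, at 0.996 between the shEZH2 arrays and at 0.992 to 0.993 across the hairpins. No gene differed by 3 log2 units or more and 2 differed by at least 2. Of 6 measured keratinocyte markers 1 was called, DSG3, higher with shEZH2 (values below), and PKP1 had both shRING1B arrays above (7.51 and 7.66 against 7.36 and 7.34, adjusted p = 0.336). The other 4, among them KRT5 (10.10 and 10.30 with shRING1B, 10.37 and 10.17 with shEZH2) and KRT14 (9.04 and 9.29, 9.08 and 9.13), overlapped between the hairpins.

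Of 14884 genes, 86 passed (0.578%), 53 higher with shEZH2 (0.356%) and 33 higher with shRING1B (0.222%). The 0.578% is the share to set beside the counts of list members called below. The lists were chosen with earlier results of these data known, so a high share in a list is a description, not a test. Values of 7661 genes lay toward shRING1B and of 7223 toward shEZH2. Called genes are those with a Benjamini-Hochberg adjusted p under 0.05 over all genes in limma, with the spread pooled over the 4 hairpin groups. Differences were modest: 21 of the called genes differed by at least 1 log2 unit, and the medians of the called differences were 0.80 higher with shEZH2 and 0.77 higher with shRING1B. In all 86 the arrays of one hairpin lay wholly above those of the other, which held for 25.6% (shRING1B above) and 22.6% (shEZH2 above) of all genes. Among the genes higher with shEZH2 were 5 enzymes of amino acid synthesis (PSAT1, PHGDH, ASS1, CTH and ASNS), 3 antimicrobial genes and the junction genes DSG3 and CLDN7. Higher with shRING1B were the checkpoint ligand CD274, the receptor AXL and its ligand GAS6, 2 transcription factors of development and 2 replication genes.

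The calls rest on each of the 4 compared arrays. Limma called 14 genes without shRING1B replicate 1, 2 without shRING1B replicate 2, 0 without shEZH2 replicate 1 (1553 genes had an unadjusted p under 0.05) and 1 without shEZH2 replicate 2. Of the 86 genes, 73 were called in none of these 4 fits. Leaving out 1 shGFP array at a time, whose spread the fit shares, also lowered the number of calls. Against shGFP itself limma called 0 genes with shRING1B (1280 had an unadjusted p under 0.05) and 109 with shEZH2 (0.732%). Among the 109 were PSAT1, CTH, ASNS, SLPI and S100A8 (limma adjusted p from 0.00326 to 0.0119). DSG3, IL18, AXL and SRGN were not (from 0.0892 to 0.176). Positions above, below or near the control are given below as array values, not as tested differences unless a test is named.

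**Figure D1:**
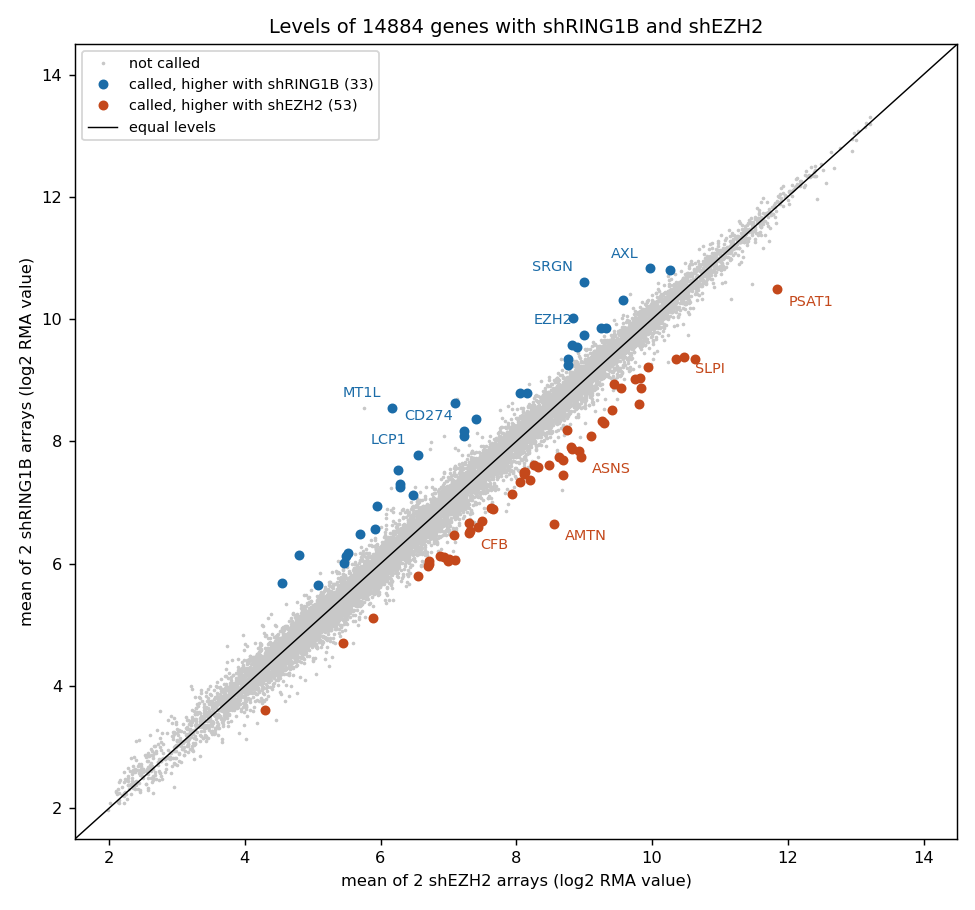
Mean log2 RMA level of 14884 genes with shRING1B (vertical axis, 2 arrays) against shEZH2 (horizontal axis, 2 arrays); blue points are the 33 genes called higher with shRING1B, red points the 53 called higher with shEZH2, and the line marks equal levels. Most genes sit close to the line, with MT1L and AMTN among the called genes farthest from it.

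The largest called difference toward shEZH2 was in AMTN, which encodes amelotin, an enamel matrix protein. It stood at 8.62 and 8.49 with shEZH2, 7.04 and 6.27 with shRING1B and 6.25 and 5.96 with shGFP. Both shEZH2 arrays were higher than all 4 others, and the shRING1B arrays differed from each other by more than the shEZH2 arrays did. The level was 3.73-fold higher with shEZH2 than with shRING1B (log2 1.90 ± 0.22 SE, n = 2 per group, limma adjusted p = 0.0137).

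Enzymes of amino acid synthesis were among the calls toward shEZH2. Of 10 measured members of a list of amino acid synthesis and transport genes, PSAT1, PHGDH, ASS1 and CTH were called higher with shEZH2 and 0 with shRING1B. That was 40% of the list, where all genes gave 0.578%. The list median was 0.72 toward shEZH2, beside -0.01 in the same direction over all genes. PSAT1, an aminotransferase of serine synthesis, was at 11.86 and 11.84 with shEZH2 and 10.63 and 10.35 with shRING1B, next to 10.71 and 10.24 with shGFP. Its shRING1B and shGFP values overlapped and the shEZH2 values stood above both, a 2.57-fold difference between the knockdowns (log2 1.36 ± 0.16, adjusted p = 0.0137). PHGDH, which starts serine synthesis from a glycolytic intermediate, was at 9.47 and 9.35 with shEZH2 against 8.59 and 8.44 (log2 0.90 ± 0.11, adjusted p = 0.0137). CTH, which makes cysteine from cystathionine, was at 9.87 and 9.74 with shEZH2 and 8.65 and 8.57 with shRING1B, 2.29-fold apart (log2 1.20 ± 0.09, adjusted p = 0.00389). ASS1, the argininosuccinate synthase on the route to arginine, was at 10.60 and 10.68 with shEZH2, 9.33 and 9.36 with shRING1B and 9.60 and 9.86 with shGFP. Here the shRING1B arrays lay below the shGFP arrays and the shEZH2 arrays above them (2.45-fold between knockdowns, log2 1.29 ± 0.15, adjusted p = 0.0137).

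A list of targets of the stress factor ATF4 and of the unfolded protein response had 2 of 13 measured members called (15.4%, all genes 0.578%). Both were higher with shEZH2, and the list median was 0.37 toward shEZH2. Of the 13, 11 leaned to shEZH2 and 2 to shRING1B. ATF4 itself, ATF3 and DDIT3 were at -0.09, -0.05 and -0.16, shRING1B minus shEZH2, and FGF21 and ATF5 at 0.10 and 0.40. None of these passed (limma adjusted p from 0.182 to 0.84), and they were chosen after their values were seen. ATF4 is translated when the kinase GCN2 or PERK senses amino acid shortage or misfolded protein, and it switches on enzymes of amino acid synthesis. ASNS, the asparagine synthetase, was at 8.89 and 9.03 with shEZH2, 7.93 and 7.56 with shRING1B and 7.73 and 7.65 with shGFP. Only the shEZH2 arrays among these 6 were above 8, and the knockdowns were 2.32-fold apart (log2 1.21 ± 0.13, adjusted p = 0.0109). XBP1, a transcription factor of the unfolded protein response, was at 9.53 and 9.57 with shEZH2 and 8.98 and 8.77 with shRING1B (log2 0.68 ± 0.10, adjusted p = 0.0272). STC2, a secreted glycoprotein, was at 10.24 and 10.22 against 9.39 and 9.20 without passing (adjusted p = 0.0642), and SESN2, a stress sensor that restrains mTORC1, at 10.06 and 10.01 against 9.58 and 9.31 (adjusted p = 0.0785). PCK2, the mitochondrial phosphoenolpyruvate carboxykinase, was 1.99-fold higher with shEZH2 (8.81 and 8.58 against 7.71 and 7.70; adjusted p = 0.0109). Of 17 tRNA synthetases, which charge tRNAs with amino acids, 0 were called. Their median was 0.18 toward shEZH2, and SARS1, WARS1 and GARS1 were at 0.43 ± 0.08, 0.38 ± 0.08 and 0.36 ± 0.08 in that direction (adjusted p = 0.0809, 0.104 and 0.111).

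Promoter letters of these genes are shown because ATF4 targets often carry a short element, TGATGNAA, read here on both strands. The windows run from 250 bases before to 50 after the first listed start of each gene in RefSeq (GRCh38.p14). All 13 measured genes of the ATF4 list and 14 of the 17 tRNA synthetases had a window, and 3 (ATF3, ASNS and FGF21) and 6 of them held the element. The amino acid list had 7 windows, and 1 held the element, that of MTHFD1L. The windows of ASS1 and CTH did not. The element was in 3 of 39 windows of genes called higher with shEZH2 (7.69%) and 0 of 23 called higher with shRING1B. It was in 241 of the 10749 windows of tested genes (2.24%), and a match is a description, not a site. An NF-kB motif was scanned in the same windows and showed no such lean. That motif was in 26 of the 39 windows of genes called higher with shEZH2 (66.7%). It was in 17 of the 23 called higher with shRING1B (73.9%) and 7379 of the 10749 tested (68.6%). The stretches below are 60 bases on the strand of the gene, with the element, or its reverse complement in AARS1, in capitals. Both called genes with a match before the start are given, with a tRNA synthetase and a folate enzyme of mitochondria that were not called.
ASNS (chr7:97872443-97872502, minus strand): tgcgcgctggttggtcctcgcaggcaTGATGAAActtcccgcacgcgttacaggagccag
DSG3 (chr18:31447660-31447719, plus strand): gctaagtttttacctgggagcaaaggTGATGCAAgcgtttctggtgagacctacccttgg
AARS1 (chr16:70289660-70289719, minus strand): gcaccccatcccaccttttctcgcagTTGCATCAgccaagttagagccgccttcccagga
MTHFD1L (chr6:150866331-150866390, plus strand): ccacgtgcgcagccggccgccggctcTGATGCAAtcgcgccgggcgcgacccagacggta
The element began 68 bases before the start in ASNS, 55 in DSG3, 187 in AARS1 and 129 in MTHFD1L. AARS1 and MTHFD1L were at 0.20 and 0.16 toward shEZH2 (limma adjusted p = 0.359 and 0.394). ATF3 and FGF21 also held the element before the start and are not shown. They were at -0.05 and 0.10, shRING1B minus shEZH2 (limma adjusted p = 0.84 and 0.71).

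**Figure D2:**
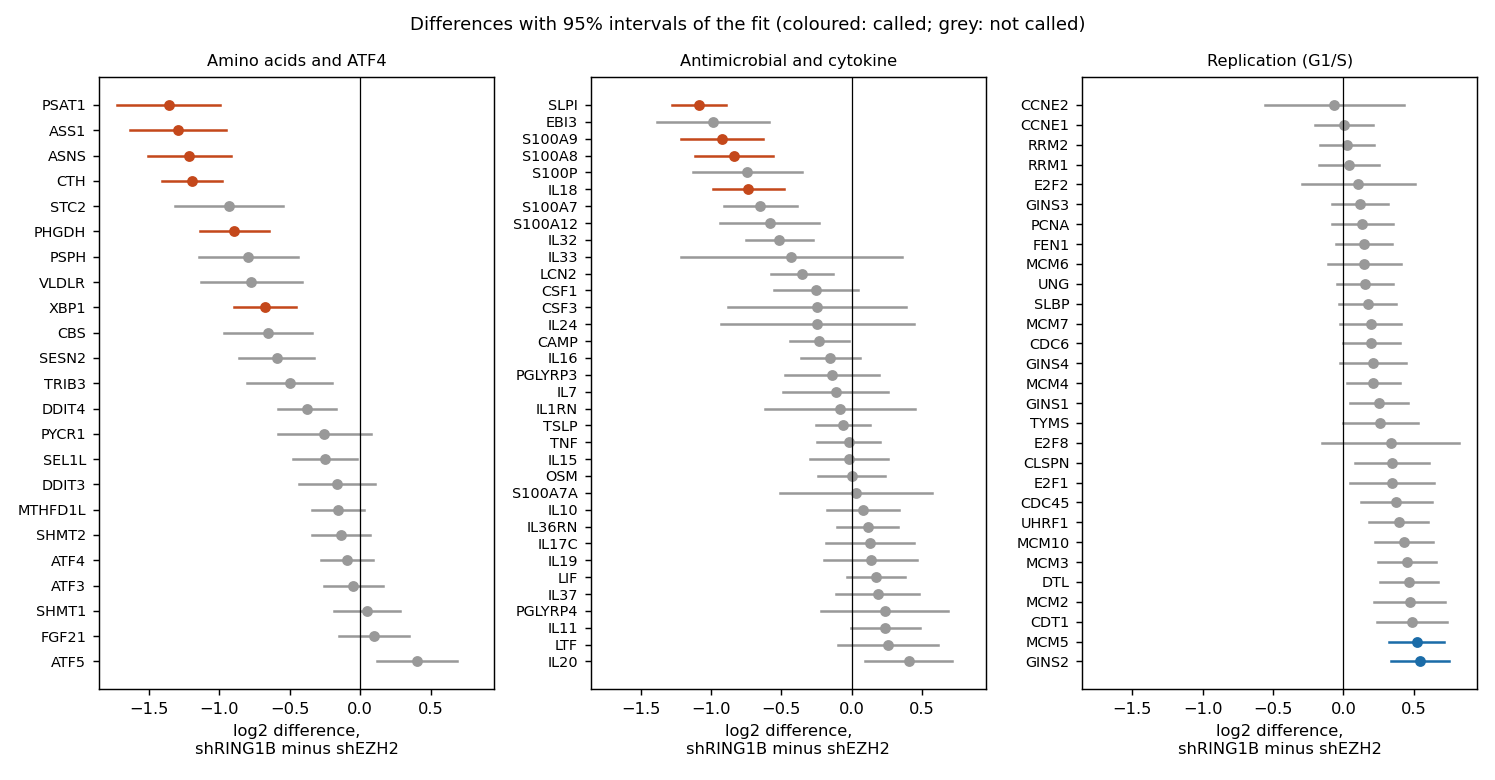
Log2 difference, shRING1B minus shEZH2, of each measured member of 5 gene lists with its 95% interval from the fit, not adjusted for the number of genes; coloured members were called. PSAT1, ASS1, ASNS and CTH sit farthest toward shEZH2 in the left panel, SLPI in the middle panel, and GINS2 and MCM5 farthest toward shRING1B in the right panel.

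Several antimicrobial proteins are made by the epidermis. Of 12 measured S100 and antimicrobial genes, SLPI, S100A9 and S100A8 were called (25%, all genes 0.578%). Values of 9 lay toward shEZH2, where 7223 of all 14884 genes did, with a list median of 0.47 in that direction. SLPI, an inhibitor of neutrophil elastase, was at 10.49 and 10.45 with shEZH2, 9.36 and 9.41 with shRING1B and 9.44 and 9.54 with shGFP. The shRING1B arrays were close to the control and the shEZH2 arrays stood above it. SLPI was 2.12-fold higher with shEZH2 than with shRING1B (log2 1.09 ± 0.08, limma adjusted p = 0.00389). S100A9 and S100A8, which pair as the alarmin calprotectin, were 1.90-fold and 1.79-fold higher with shEZH2 (adjusted p = 0.0242 and 0.028). S100A8 was at 8.23 and 8.18 with shEZH2, 7.29 and 7.44 with shRING1B and 6.97 and 7.02 with shGFP. The 3 groups did not overlap, with shRING1B in between. S100A7, also called psoriasin, was 0.65 ± 0.11 toward shEZH2 and did not pass (adjusted p = 0.059).

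Among inflammatory genes, 1 cytokine and 1 NF-kB target were called, and 0 of 28 chemokines. IL18, a cytokine of the interleukin 1 family that keratinocytes store as a precursor, was at 9.75 and 9.76 with shEZH2 and 8.88 and 9.16 with shRING1B, on either side of shGFP at 9.36 and 9.27 (log2 0.73 ± 0.11 higher with shEZH2, adjusted p = 0.0305). CFB, a factor of the alternative complement pathway, was at 7.33 and 7.28 against 6.53 and 6.48 (log2 0.79 ± 0.08, adjusted p = 0.0109). Its shRING1B values were near those of shGFP (6.53 and 6.60). Over all 22 cytokines the median was 0.04 toward shEZH2, and over 19 NF-kB targets 0.13.

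CCL20, a chemokine for dendritic cells and lymphocytes, was above both shGFP arrays (6.07 and 5.81) on all 4 knockdown arrays, at 7.31 and 6.62 with shRING1B and 7.55 and 7.73 with shEZH2. The difference between knockdowns did not pass (log2 0.67 ± 0.24 toward shEZH2, 95% interval 0.11 to 1.23, adjusted p = 0.249), and that interval does not show that the knockdowns act alike. C3, the central complement protein, was at 11.48 and 11.46 with shEZH2 and 10.68 and 10.46 with shRING1B (log2 0.90 ± 0.19, adjusted p = 0.086). EBI3, a subunit of interleukins 27 and 35, and IL32 were at 0.98 ± 0.17 and 0.51 ± 0.10 toward shEZH2 (adjusted p = 0.0597 and 0.0824). Limma called 0 of 31 genes of the interferon response, and 0 had an unadjusted p under 0.05, as for 6 genes of antigen presentation. The lowest p-value was that of the helicase DDX60 in the first list (adjusted p = 0.381) and of the peptide loading protein TAPBP in the second (adjusted p = 0.342). The mean level of the interferon list was 7.34 and 7.68 with shRING1B, 7.55 and 7.56 with shEZH2 and 7.48 and 7.92 with shGFP. The shRING1B arrays thus lay farther from each other than from either shEZH2 value. This spread was not particular to shRING1B. Replicate 2 was clearly the higher array with shRING1B, shGFP and shBMI1, while the shEZH2 arrays lay close together. Whether the replicate number marks a batch is not stated in the labels.

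Leukocytes express many such genes. Of 10 measured leukocyte markers 9 had values toward shEZH2, where 7223 of all 14884 genes did, with a median of 0.17. Limma called 0 of the 10 markers, and 0 had an unadjusted p under 0.05. Their mean level was 6.57 and 6.61 with shEZH2, 6.49 and 6.38 with shRING1B and 6.47 and 6.40 with shGFP. Among 3 measured fibroblast markers, DCN, a matrix proteoglycan, was called higher with shEZH2 (8.03 and 7.86 against 7.22 and 7.07, adjusted p = 0.0186), while LUM and THY1 were not called. The part of other cells in these results was not tested.

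Of the immune checkpoint ligands, 1 of 11 was called (9.09%, all genes 0.578%). CD274, which encodes PD-L1, the ligand that restrains T cells through PD-1, was at 8.23 and 8.12 with shRING1B, 7.28 and 7.17 with shEZH2 and 7.84 and 7.99 with shGFP. The shRING1B arrays lay above the control and the shEZH2 arrays below it, 1.93-fold apart (log2 0.95 ± 0.10, adjusted p = 0.0109). PDCD1LG2, the other ligand of PD-1, was at 0.31 ± 0.09 toward shRING1B without passing (adjusted p = 0.169), and CD80, a costimulator of T cells, at 0.47 ± 0.12 toward shEZH2 (adjusted p = 0.118).

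AXL, a receptor tyrosine kinase common in mesenchymal carcinoma cells, was at 10.82 and 10.84 with shRING1B, 10.01 and 9.93 with shEZH2 and 10.43 and 10.35 with shGFP. Its ligand GAS6 was at 8.82 and 8.75 with shRING1B and 8.09 and 8.02 with shEZH2, beside 8.83 and 8.97 with shGFP. Receptor and ligand were 1.81-fold and 1.66-fold higher with shRING1B (adjusted p = 0.012 and 0.016), but AXL lay on either side of the control while the shRING1B values of GAS6 stayed near it. CCN2, a matricellular protein and target of TGF-beta and YAP, was at 9.43 and 9.74 against 8.81 and 8.82 (log2 0.77 ± 0.12, adjusted p = 0.0398). AXL and CCN2 were the 2 called of 14 mesenchymal genes, whose median was 0.16 toward shRING1B. TNC was at 0.41 ± 0.08 in that direction and TWIST1, a transcription factor of mesenchymal transition, at 0.31 ± 0.09 toward shEZH2 (adjusted p = 0.0753 and 0.183).

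Junction genes leaned to shEZH2. DSG3 and CLDN7 were called among 29, and 16 of the 29 had both shEZH2 arrays above both shRING1B arrays (55.2%, where all genes gave 22.6%). DSG3, a desmosomal cadherin of basal epidermis, was at 10.33 and 10.37 with shEZH2, 9.22 and 9.46 with shRING1B and 9.76 and 10.09 with shGFP. It was 2.01-fold higher with shEZH2, and shGFP lay in between (log2 1.01 ± 0.13, adjusted p = 0.0187). The tight junction protein CLDN7 was at 8.83 and 8.83 with shEZH2 and 8.07 and 7.68 with shRING1B (1.93-fold, adjusted p = 0.0336). Its relative CLDN1 was at 7.80 and 7.95 against 6.81 and 7.13, and the desmosomal plakin DSP at 11.61 and 11.68 against 11.14 and 11.19, without passing (adjusted p = 0.0743 and 0.0717).

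**Figure D3:**
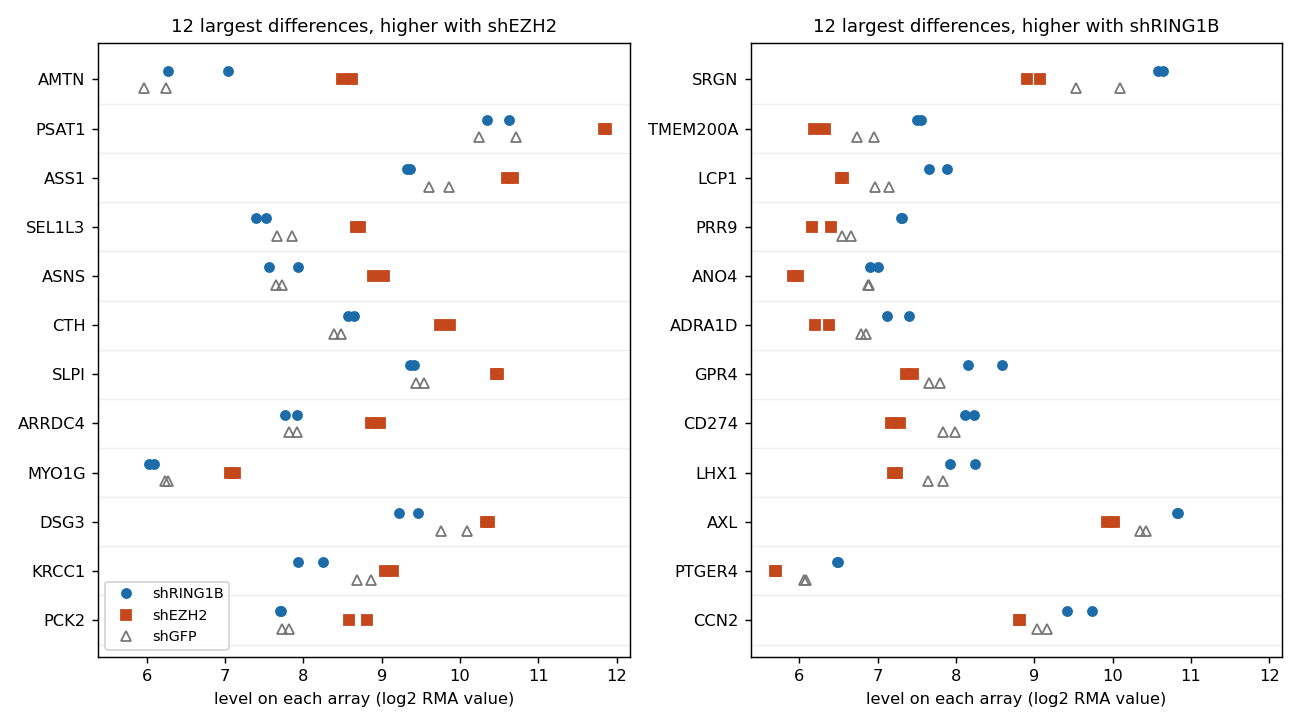
Log2 RMA level on each array of the 12 called genes with the largest difference toward shEZH2 (left) and toward shRING1B (right), small RNA, non-coding, pseudogene and keratin-associated symbols left out; circles are shRING1B, squares shEZH2 and open triangles shGFP. The knockdowns do not overlap in any of the 24 genes, which was a condition of their choice. In PSAT1 and SLPI the circles lie near the triangles, and in SRGN, AXL and LCP1 the triangles lie between circles and squares.

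Further large differences toward shRING1B were in SRGN, TMEM200A and LCP1. SRGN, the proteoglycan serglycin of secretory granules, was at 10.58 and 10.64 with shRING1B, 8.91 and 9.08 with shEZH2 and 10.10 and 9.53 with shGFP, so that it was 3.07-fold apart between knockdowns with the control in between (log2 1.62 ± 0.18, adjusted p = 0.0126). LCP1, an actin-bundling plastin of blood cells and many carcinomas, was at 7.66 and 7.89 with shRING1B, 6.54 and 6.56 with shEZH2 and 6.96 and 7.14 with shGFP (2.34-fold, adjusted p = 0.00808). TMEM200A, a membrane protein, was 2.41-fold higher with shRING1B (adjusted p = 0.0242). For SRGN, AXL and LCP1, the differences from shGFP were 0.79, 0.44 and 0.72 with shRING1B and -0.82, -0.42 and -0.51 with shEZH2, on the log2 scale, and none of the 6 passed (limma adjusted p from 0.0892 to 0.318). ANO4, of the anoctamin family of channels and scramblases, was close to the control with shRING1B (mean 6.95 ± 0.07 SD, n = 2, shGFP 6.87 and 6.89) and below it with shEZH2 (5.92 and 5.98; difference between knockdowns log2 1.00 ± 0.08, adjusted p = 0.0055).

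The receptors PTGER4 and ADRA1D, for prostaglandin E2 and adrenaline, were also higher with shRING1B. PTGER4 was at 6.49 on both shRING1B arrays, 5.70 and 5.69 on the shEZH2 arrays and 6.09 and 6.06 on the shGFP arrays (log2 0.80 ± 0.08, adjusted p = 0.0106). ADRA1D and the proton-sensing receptor GPR4 were 1.96-fold and 1.95-fold apart (adjusted p = 0.0137 and 0.0305). MT1L, listed as a metallothionein pseudogene, gave the largest called difference, at 8.35 and 8.74 with shRING1B, 6.01 and 6.34 with shEZH2 and 7.81 and 7.99 with shGFP (5.15-fold, adjusted p = 0.00389). It is uncertain because metallothioneins have near-identical copies, and none of the other 9 measured was called, with values from -0.19 to 0.30 toward shRING1B.

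Among 92 transcription factor genes of development that Polycomb commonly silences, 2 were called (2.17%), both higher with shRING1B. LHX1, a LIM homeobox factor of kidney and head development, was at 8.25 and 7.93 with shRING1B, 7.26 and 7.19 with shEZH2 and 7.65 and 7.83 with shGFP (1.82-fold, adjusted p = 0.0242). SOX9, a factor of cartilage and hair follicle stem cells, was at 10.40 and 10.22, 9.62 and 9.54, and 10.05 and 9.94 in the same order (1.66-fold, adjusted p = 0.0315). In both, the shGFP arrays lay between the knockdowns. The median over all 92 was 0.01, as over all genes. Of 27 HOX genes 0 were called. HOXB9 stood at 9.73 and 9.72 with shEZH2, 9.29 and 9.09 with shRING1B and 8.59 and 8.62 with shGFP, and the difference between knockdowns did not pass (log2 0.53 ± 0.09 toward shEZH2, 95% interval 0.32 to 0.75, adjusted p = 0.059).

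Few subunits of the complexes passed. Besides EZH2, limma called 0 of the other 9 measured PRC2 genes and 0 of 21 PRC1 genes, of which 0 and 3 had an unadjusted p under 0.05. SUZ12, the scaffold of PRC2, was at 11.56 and 11.66 with shRING1B and 11.44 and 11.43 with shEZH2 (adjusted p = 0.379). SCMH1, a PRC1-associated protein, had the smallest p-value among PRC1 genes (8.74 and 8.80 against 9.14 and 9.10, adjusted p = 0.15). L3MBTL4, a relative of the PRC1 subunit L3MBTL2 that was chosen after its value was seen, was higher with shEZH2 (6.74 and 6.69 against a mean of 5.99 ± 0.01 SD, n = 2, adjusted p = 0.0126).

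Replication genes leaned to shRING1B. Of 29 G1/S genes, MCM5 and GINS2 were called, 28 had values toward shRING1B and the median was 0.21. Of all 14884 genes, 7661 had values toward shRING1B. Both shRING1B arrays lay above both shEZH2 arrays in 23 of the 29 (79.3%, where all genes gave 25.6%). MCM5, part of the replicative helicase, was at 9.84 and 9.85 with shRING1B, 9.27 and 9.38 with shEZH2 and 9.86 and 9.93 with shGFP, and GINS2, a cofactor of that helicase, at 10.77 and 10.84, 10.27 and 10.24, and 10.86 and 10.70. In both genes shRING1B was near the control and shEZH2 below it (adjusted p = 0.0479 and 0.0495). CDC25A, the phosphatase that frees CDK2 for S phase, was not on the list, was chosen after its value was seen and was called too (9.27 and 9.24 against 8.78 and 8.74, adjusted p = 0.0451). Of 27 G2/M genes 0 were called, with a median of 0.12 toward shRING1B, but this list leaned the same way. Values of 24 lay toward shRING1B, 15 had both shRING1B arrays above (55.6%) and 8 had an unadjusted p under 0.05.

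Of 35 epidermal differentiation genes limma called 0, and 8 had an unadjusted p under 0.05. Values of 19 lay toward shRING1B and of 16 toward shEZH2, with a median of 0.07 toward shRING1B. CERS3, which makes ceramides for the barrier lipids, was at 6.41 and 6.26 with shEZH2 and 5.80 and 5.88 with shRING1B (log2 0.50 ± 0.09 toward shEZH2, adjusted p = 0.0665). The largest values went the other way: KLK7, a protease of the horny layer, was at 8.23 and 9.17 with shRING1B and 7.18 and 7.05 with shEZH2 (log2 1.58 ± 0.36, adjusted p = 0.107). LCE3D, a late envelope protein, was at 7.54 and 8.45 against 6.77 and 6.73 (adjusted p = 0.17). The largest difference of all genes, in the cornified envelope gene CRCT1, was of this kind: 7.85 and 9.25 with shRING1B, 5.76 and 5.75 with shEZH2 and 6.74 and 7.41 with shGFP (log2 2.79 ± 0.61, adjusted p = 0.0975). It was chosen after its value was seen. In KLK7, LCE3D and CRCT1 the shRING1B arrays lay above both shEZH2 arrays but differed from each other by over 0.9. The shBMI1 arrays, whose spread the fit shares, also lay apart. They were at 6.36 and 7.38 in KLK7, 6.20 and 6.98 in LCE3D and 5.34 and 7.21 in CRCT1. These spreads widen the error. In each of these genes replicate 2 was the higher array with shRING1B, shGFP and shBMI1, but not with shEZH2.

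**Figure D4:**
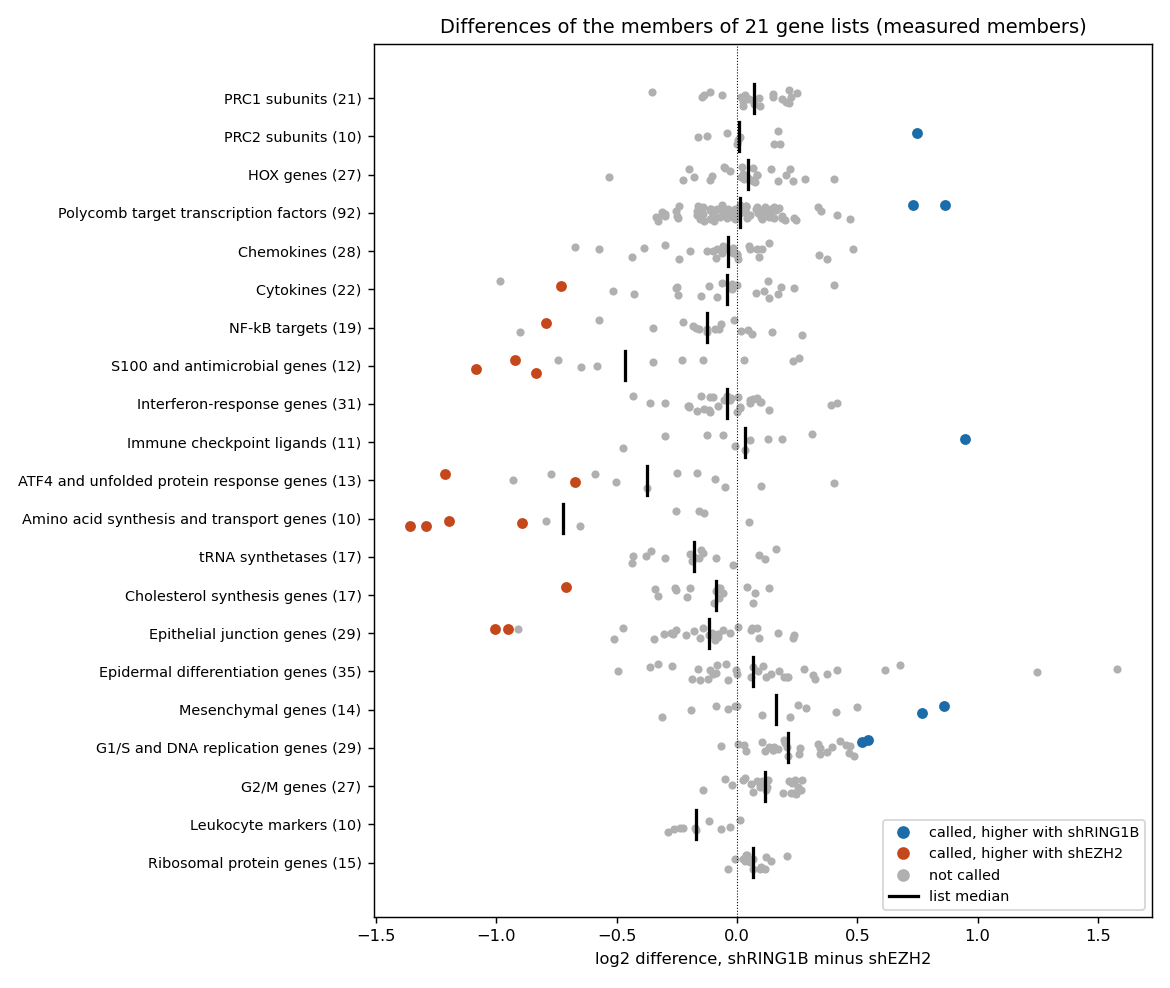
Log2 difference, shRING1B minus shEZH2, of each measured member (points, numbers in brackets) of 21 gene lists; bars are list medians, blue and red points were called higher with shRING1B and with shEZH2. The amino acid list has its median at -0.72, the S100 and antimicrobial list at -0.47 and the G1/S list at 0.21, while those of HOX genes and chemokines lie near 0.

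STARD4, a sterol carrier, was the 1 of 17 cholesterol genes called, higher with shEZH2 (7.71 and 7.53 against 6.98 and 6.84, adjusted p = 0.0305). Of 15 ribosomal protein genes 0 were called, with a median of 0.07 toward shRING1B. In all, 24 of the 40 lists had no called member.

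**Figure D5:**
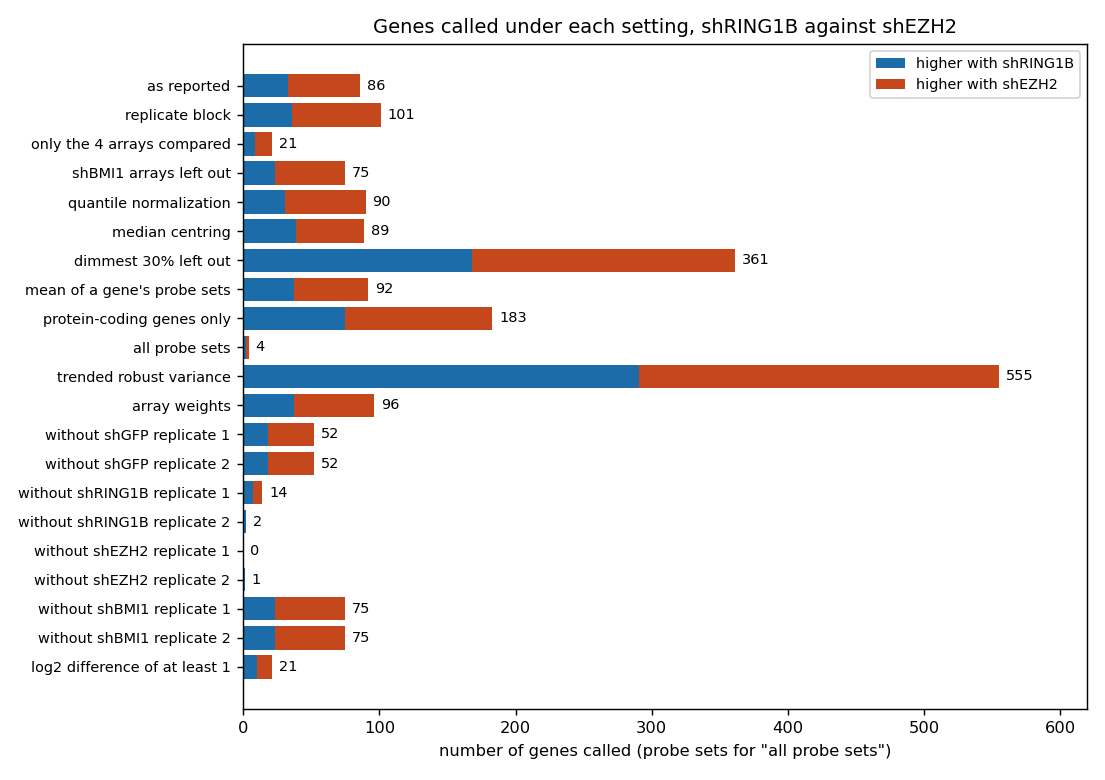
Number of genes called in the comparison under each processing setting, split by direction. Counts run from 0 without shEZH2 replicate 1 to 555 with a trended robust variance, against 86 as reported.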

How the data were processed

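The authors deposited log2 values per probe set, made with RMA. The submitters' processing notes list limma beside it. Their versions and the probe definitions are not given in the sources read. Of 53617 probe sets, 16098 carried 1 gene symbol in the platform annotation, checked against RefSeq gene identifiers, and 37519 none. A gene with several (779) was taken at its highest mean. Limma 3.58.1 in R 4.3.3 fitted a mean per hairpin to all 8 arrays (4 residual degrees of freedom, moderated variance without trend); with 2 arrays against 2 an exact permutation test cannot go below 0.333. On simulated data with 200 changed genes among 14884, 26% of those changed by 0.5 log2 units and 75% of those changed by 1 were called. These percentages hold for that simulation only. They depend on the share of changed genes, which is unknown here (2317 genes had an unadjusted limma p under 0.05), and on a spread estimated gene by gene. The number of arrays limits the precision. The naming rule took the 12 largest called differences per direction among genes whose arrays did not overlap between the hairpins. It also took up to 4 members per list by p-value. The 40 gene lists, the comparison and the naming rule were chosen with earlier results of these data known. RMA compresses the differences of dim probe sets and hides a shift common to most genes.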

Additional observations from a re-analysis of the deposited data

How the results depend on the processing

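The count of 86 called genes (33 higher with shRING1B, 53 with shEZH2) depended on the variance model, the genes tested and each array. It was 21 (9 and 12) with only the 4 compared arrays, 361 (168 and 193) without the dimmest 30% of genes, 183 (75 and 108) over protein-coding genes, 555 (291 and 264) with a trended robust variance, 4 (2 and 2) over all probe sets and 21 (10 and 11) with a difference of at least 1. Leaving out each array in turn gave 0 to 75 calls, 0 to 23 higher with shRING1B and 0 to 52 with shEZH2. Quantile normalization, median centring, array weights, probe set means and leaving out shBMI1 gave 75 to 96. With the replicate number as a block, 101 genes were called (36 and 65), 77 of them among the 86; same-numbered arrays of these hairpins did not deviate together (r = 0.00066 across genes). Over the other 5 pairs of hairpins r ran from 0.0202 to 0.248, the highest for shGFP and shBMI1, and the labels do not say that numbers mark a batch. Of 39 called genes named by rule, 39 stayed called after median centring, 37 after quantile normalization and 12 with only the 4 compared arrays; 0 reversed under any setting. All 86 remained called with the trended robust variance, and 15 in all 10 settings that kept these 4 arrays and 1 value per gene. The smallest called difference was 0.49 log2 units, so at the reported setting no smaller difference was called with 2 arrays per hairpin.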

Other observations

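Cytoskeletal and adaptor genes not covered by the lists were also called higher with shEZH2, and were chosen after their values were seen. The microtubule-associated proteins MAP1B and MAP2 were at 8.78 and 8.84, and 6.94 and 7.05, with shEZH2, against 7.95 and 7.87, and 6.12 and 5.97, with shRING1B (adjusted p = 0.0137 and 0.0135). The plakin EPPK1 and the unconventional myosin MYO1G were 1.72-fold and 2.05-fold higher with shEZH2. The arrestin-domain proteins ARRDC4 and ARRDC3, of which ARRDC4 follows glucose through MondoA in many cells, were 2.11-fold and 1.73-fold higher with shEZH2 (adjusted p = 0.00808 and 0.0215). RIPK3, the kinase of necroptosis, was at 5.88 and 5.91 with shEZH2, 5.12 and 5.09 with shRING1B and 5.55 and 5.50 with shGFP (limma adjusted p = 0.0109). RIPK3 was among the dimmest 30% of the genes tested. ULBP1, a stress ligand for the NKG2D receptor of natural killer cells, was at 8.41 and 8.54 with shEZH2 and 7.55 and 7.69 with shRING1B (adjusted p = 0.0339).

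KRTAP2-3, a keratin-associated protein of hair left out by the naming rule, was at 8.75 and 8.49 with shRING1B, 7.10 and 7.09 with shEZH2 and 7.71 and 7.86 with shGFP (2.88-fold, adjusted p = 0.00389). The transcription factor MSC and its antisense neighbour MSC-AS1 were the 1 pair of called genes adjacent among the genes tested, at 0.83 and 0.63 toward shEZH2; the labels do not say whether the probes tell strands apart, so their values are uncertain. The long non-coding RNAs LINC00707 and LINC02582 were 2.28-fold and 2.54-fold higher with shRING1B, and LINC02582 was among the dimmest 30% of the genes tested.

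Of 37519 probe sets without a gene symbol, 2 passed when all probe sets were tested. Probe set 16976615 was at 8.17 and 8.14 with shEZH2, 6.50 and 6.33 with shRING1B and 6.39 and 6.20 with shGFP. Probe set 16690704 was at 9.29 and 9.32 with shEZH2, 7.78 and 7.47 with shRING1B and 8.32 and 8.42 with shGFP. Probe set 16674998 was low only on the shRING1B arrays among all 8, at 7.48 and 7.64, while the other 6 lay between 8.96 and 9.30; its difference from shEZH2 was 1.49 ± 0.13 (adjusted p = 0.06 over all probe sets).

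Among genes that differed by at least 1 log2 unit without passing, OLR1, a scavenger receptor for oxidised lipoprotein, was at 8.69 and 8.66 with shEZH2 and 7.03 and 7.37 with shRING1B (adjusted p = 0.109), and the lysosomal protease CTSS at 7.02 and 7.23 against 6.42 and 5.80 (adjusted p = 0.0838).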
